A study of Hordeum vulgare with 12 samples.

Results

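The 5 SEPALLATA-like MADS-box genes of barley, HvMADS1, HvMADS5, HvMADS34, HvMADS7 and HvMADS8, were followed in the young spike. All 5 identifiers were found in a table of 29014 genes, and all 5 were among the 19367 genes that reached 1 FPKM in some group (FPKM counts reads relative to the length of a gene and the depth of its library). RNA came from whole inflorescences of Golden Promise, a spring barley much used for transformation, grown under what the labels call normal conditions. The labels gave 12 samples in 4 groups of 3, namely the mutant and the wild type (marked WT in the plots), each at a stage labelled W2.0 and a later one labelled W3.5, with 15 to 20 spikes in each replicate. The design text of the series gives the second stage as W3.0, and the sample labels were followed. The series is about FASCIATED EAR (FEA) genes and inflorescence meristem size, but neither the mutated gene nor the allele of the group labelled mutant is given in the sources used here. The members were chosen by identifier and not by a rule on their values, but with earlier results of these data known. The table does not pair identifiers with names, so the names are those given with the list of identifiers.

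SEPALLATA proteins are the E-class factors of the floral model. They join other MADS-domain proteins in complexes that specify spikelets, floral meristems and floral organs. In grasses they fall into a clade named after rice LOFSEP genes (here HvMADS1, HvMADS5 and HvMADS34) and a clade related to Arabidopsis SEP3 (here HvMADS7 and HvMADS8). W2.0 and W3.5 are stages of the Waddington scale. On this scale the earlier stage is the double ridge, when spikelet ridges first appear on the spike, and at the later one floral organ primordia are forming.

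Each column of the table held the authors' mean FPKM of a group, so values below are group means with no spread unless single libraries are named. Depth behind the values was 63298092 to 75896357 reads per library, as derived from the digits of the means. Differences are of log2(FPKM + 1), which understates the change of low values, and a gene was counted as higher or lower when it differed by at least 1 on this scale, that is 2-fold. In these whole spikes, fewer cells that express a gene and less RNA per cell cannot be told apart.

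HvMADS34 was present in every group. Its rice counterpart, OsMADS34, acts on spikelet meristem identity and panicle branching. The authors' mean of HvMADS34 (HORVU5Hr1G095710 on 5H) was 17.4 FPKM in the wild type at W2.0 and 18.2 FPKM in the mutant of that stage, and 17.1 FPKM in the wild type and 29.8 FPKM in the mutant at W3.5. The first 3 of these means lie close together and the mutant at W3.5 stands above them.

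The other LOFSEP genes were present at both stages, with higher means at the later one. HvMADS5 (HORVU7Hr1G025700 on 7H) had the highest mean of the 5 genes in all groups but the mutant at W2.0, where HvMADS34 was higher. Its group means were 21.4 FPKM in the wild type at W2.0 and 6.26 FPKM in the mutant of that stage, and 35.9 FPKM in the wild type and 31.5 FPKM in the mutant at W3.5. HvMADS1 (HORVU4Hr1G067680 on 4H), the counterpart of rice OsMADS1, which acts in floret meristem determinacy and in lemma and palea identity, had means of 7.31 FPKM in the wild type and 2.23 FPKM in mutant spikes of W2.0. At W3.5 it stood at 18.3 FPKM in the wild type and 16.6 FPKM in the mutant. In both genes the mutant at W2.0 was the lowest group and the 2 groups of W3.5 were the highest.

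The SEP3-clade genes had means that were low or near 0 at W2.0 and between 13.2 and 22.8 FPKM at W3.5. In rice, OsMADS7 and OsMADS8 act in floral organ identity and meristem determinacy. HvMADS8 (HORVU5Hr1G076400 on 5H) had means of 6.63 FPKM in the wild type at W2.0 and 0.0292 FPKM in the mutant of that stage, and 22.8 FPKM in the wild type and 15.5 FPKM in the mutant at W3.5. No wild-type library of W2.0 lay near 6.63 FPKM, since 1 was inferred at 17.2 FPKM and the others at 1.16 and 1.5 FPKM (below). HvMADS7 (HORVU7Hr1G054220 on 7H) was listed at 5.62 FPKM in the wild type and at 0 in the mutant at W2.0, to 9 decimals. Its means at W3.5 were 20.2 FPKM in the wild type and 13.2 FPKM in the mutant. Both genes thus had their lowest mean in the mutant at W2.0 and their highest in the wild type at W3.5. How reads that match both genes were counted is not given in the sources used here.

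**Figure D1:**
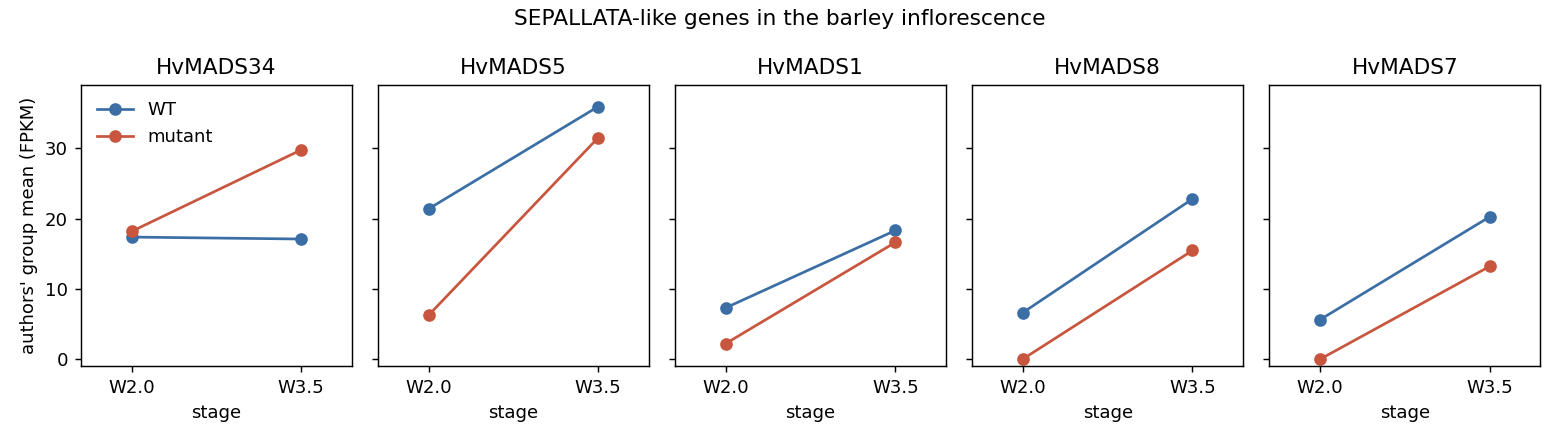
Authors' group means (FPKM, vertical axis) of the 5 SEPALLATA-like genes at W2.0 and W3.5 (horizontal axis), with wild type in blue and mutant in red; each point is the mean of a group and carries no error bar because the table gives none. HvMADS7 and HvMADS8 start at 0 and 0.0292 FPKM in the mutant, while HvMADS34 starts at 18.2 FPKM, above its wild-type mean of 17.4 FPKM.

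The order of levels differed between the groups (FPKM, which is per length). In the wild type at W2.0 the order from high to low was HvMADS5, HvMADS34, HvMADS1, HvMADS8 and HvMADS7. In the mutant at W2.0 HvMADS34 came first and made up 68.1% of the summed FPKM of the 5 genes, against 29.8% in the wild type. At W3.5 HvMADS34 was the lowest of the 5 in the wild type, with 14.9% of the sum, and the second highest in the mutant, with 27.9%. The sum over the 5 genes was 58.3 FPKM in the wild type at W2.0 and 26.7 FPKM in the mutant of that stage, and 114 and 107 FPKM at W3.5. Since group means carry no spread, whether neighbours in these orders differ beyond it could not be determined.

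The first comparison asked how the mutant differed from the wild type at W2.0. Of the 5 genes, 4 were lower in the mutant by at least 1 on the log2(FPKM + 1) scale, and none was higher. Over all 19367 genes, 1.9% were lower by this much and 2.56% were higher. The differences of the group means were -2.89 for HvMADS8, -2.73 for HvMADS7, -1.62 for HvMADS5 and -1.36 for HvMADS1. HvMADS34 differed by 0.06. The median difference was -1.62 over the 5 genes and 0.02 over all genes. On this scale the SEP3-clade genes had the largest differences of the 5, and HvMADS34 was nearly level. The rank of HvMADS8 rests on 1 wild-type library (below). Without that library its difference, with the logs of the single libraries averaged, was -1.18, smaller in size than those of HvMADS5 and HvMADS1. HvMADS7 could not be checked in this way. The order turned with a pseudocount of 5 FPKM, where HvMADS5 differed by -1.23, HvMADS8 by -1.21 and HvMADS7 by -1.09.

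At W3.5 none of the 5 genes reached 2-fold in either direction, where 0.805% of all genes were lower and 2% higher. HvMADS7 and HvMADS8 were lower in the mutant, with differences of -0.58 and -0.53, and HvMADS5 and HvMADS1 differed by -0.18 and -0.13. HvMADS34 was higher in the mutant by 0.77. The sign was the same as at W2.0 for each of the 5 genes, and the size was smaller for 4 of them and larger for HvMADS34.

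**Figure D2:**
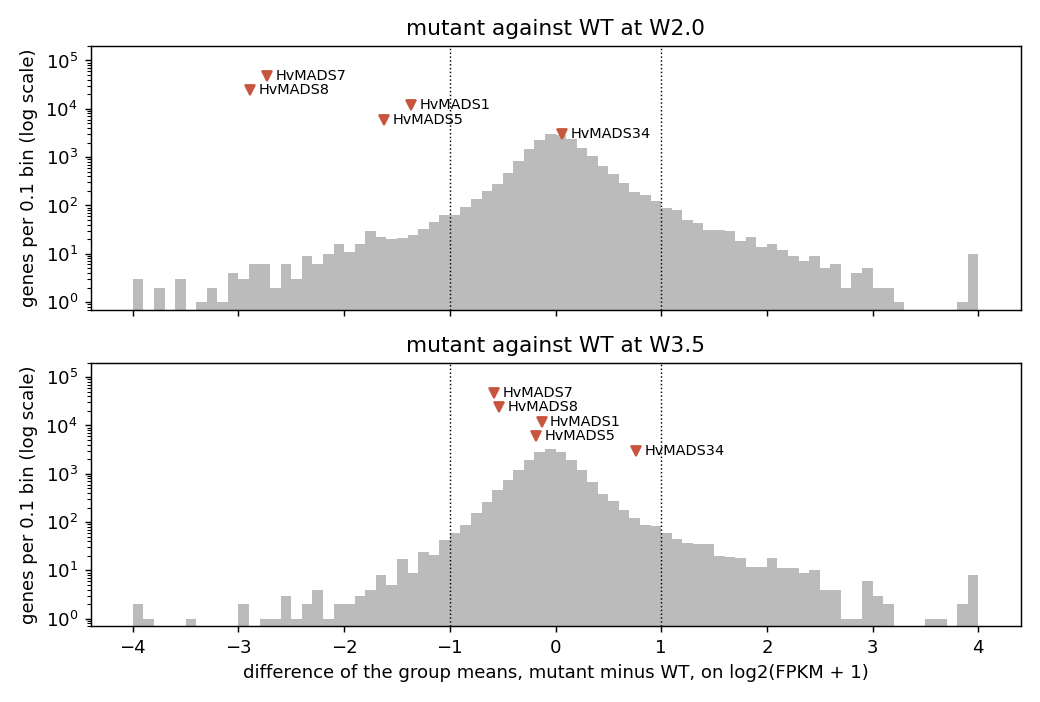
Difference of the group means, mutant minus wild type, on log2(FPKM + 1) (horizontal axis) for all 19367 genes (grey bars, genes per bin on a log axis, with differences beyond the plotted range gathered in the end bins) and the 5 SEPALLATA-like genes (red triangles, whose height has no meaning) at W2.0 (top) and W3.5 (bottom); dotted lines mark 2-fold. At W2.0, 4 of the triangles lie left of the lower line, from -2.89 to -1.36, and at W3.5 all 5 lie between the lines.

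The stage comparisons asked what differed between W2.0 and W3.5 in each genotype. In the wild type, 3 of the 5 genes were at least 2-fold higher at W3.5, against 1.08% of all genes, and none was lower by this much, against 4.07%. Their differences were 1.68 for HvMADS7, 1.64 for HvMADS8 and 1.22 for HvMADS1, with HvMADS5 at 0.72 and HvMADS34 at -0.02. In the mutant, 4 of the 5 were higher by this much, against 0.733% of all genes, and none was lower, against 2.46%. HvMADS8 differed by 4.0, HvMADS7 by 3.83, HvMADS1 by 2.45 and HvMADS5 by 2.16, while HvMADS34 differed by 0.68. HvMADS8 and HvMADS7 thus had the largest stage differences of the 5 in both genotypes. The stage and genotype comparisons share columns, so the low means of the mutant at W2.0 enter both. In the wild type, 1 library held 86.6% of the signal of HvMADS8 at W2.0 (below). It raised the W2.0 mean, which was 1.33 FPKM without it in place of 6.63 FPKM, and so made the wild-type stage difference smaller.

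The interaction is the genotype difference at W3.5 minus that at W2.0. It was 2.36 for HvMADS8, 2.15 for HvMADS7, 1.44 for HvMADS5, 1.23 for HvMADS1 and 0.70 for HvMADS34, so that 4 of the 5 genes passed 1, against 2.97% of all genes, and none passed -1, against 3.17%. With a pseudocount of 5 FPKM in place of 1, HvMADS5 alone of the 5 passed, against 1.22% of all genes, since the lower levels then count for less. The value of HvMADS8 also leans on 1 wild-type library of W2.0, which held 86.6% of its wild-type signal there (below). Without that library its wild-type mean at W2.0 was 1.33 FPKM in place of 6.63 FPKM. Its genotype difference at W2.0 was then -1.18 over the single libraries, against -0.53 at W3.5. The interaction was not computed again, but with these values that of HvMADS8 would not pass 1. No test of the interaction could be made for any of the 5 genes, because single libraries of W3.5 were not recovered for them.

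For HvMADS8 the reads of the single libraries of W2.0 could be recovered from the digits of the means. The recovered reads held 99.3% of the posterior probability, and 95.4% when gene lengths to 8000 were allowed. They are inferred values, and in simulated data with libraries spread as widely some accepted solutions were wrong. Libraries are lettered from the deepest (A) to the shallowest (C) of their group, since which library is which labelled replicate is unknown. In the wild type, HvMADS8 had 1116 reads in library A, 73 in library B and 85 in library C, which correspond to 17.2, 1.16 and 1.5 FPKM. In the mutant it had no read in libraries A and B and 5 reads in library C, which correspond to 0.0876 FPKM there. With no read, a level of up to 0.046 FPKM in library A and 0.047 FPKM in library B is allowed (3 reads per library, counting error only). Wild-type library A was thus far above the other wild-type libraries, and all wild-type libraries were above all mutant libraries.

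Library A held 86.6% of the wild-type signal of HvMADS8 at W2.0 and stood 12.9-fold above the mean of libraries B and C, which was 1.33 FPKM. Its 17.2 FPKM lay between the group means of the mutant and of the wild type at W3.5, 15.5 and 22.8 FPKM. The wild-type value was 6.63 ± 9.18 FPKM and the mutant value 0.029 ± 0.051 FPKM (SD, n = 3). Every wild-type library was at least 13.3-fold above the highest mutant library.

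On log2(FPKM + 1) of the single libraries, HvMADS8 was lower in the mutant by 2.17, with an SE of 0.73. The size is below that of the difference of group means (-2.89), because here the logs of the libraries are averaged. It did not pass limma, with an adjusted p of 0.373 (unadjusted p = 0.0189) over 3162 genes tested, of which 0.411% were called lower and 1.3% higher. An exact two-sided permutation test of the 3 wild-type against the 3 mutant libraries gave p = 0.1, the smallest that 3 against 3 allows. Without wild-type library A the difference was -1.18, with an SE of 0.20 and a limma adjusted p of 0.0706, so the difference was smaller and its error smaller too. HvMADS8 entered the fit through its 3 wild-type libraries alone, since the genes tested had to reach 1 FPKM in 3 or more of the 6 libraries.

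**Figure D3:**
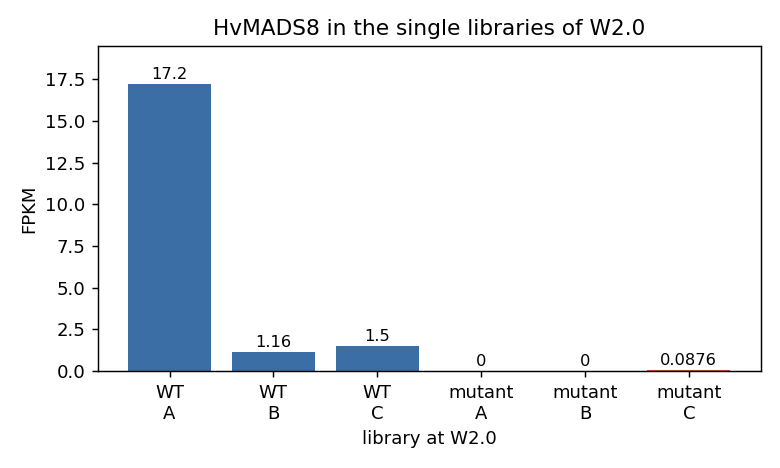
Level of HvMADS8 (FPKM, vertical axis) in each of the 6 libraries of W2.0 (bars, wild type in blue and mutant in red, libraries lettered from the deepest of each group). Wild-type library A stands at 17.2 FPKM, wild-type libraries B and C at 1.16 and 1.5 FPKM, and the mutant libraries at 0, 0 and 0.0876 FPKM.

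The wild-type libraries of W2.0 also differed over other genes along the stage difference, with libraries A and B shifted in opposite directions. Each library was compared with the others of its group. A shift of library A therefore moves the others the opposite way, and the shift of B is not separate from it. The stage difference of the mutant shares no library with the wild type. Of the 17 tested genes that were at least 2-fold higher at W3.5 in the mutant, HvMADS8 among them, 12 were higher in wild-type library A than in both other wild-type libraries of W2.0 (70.6%, against 30.5% of 3136 genes with a stage value). Of the 103 genes that were lower in the mutant at W3.5 by this much, 79 were lower in library A than in both others (76.7%, against 42.9%). The median difference between library A and the mean of B and C was 0.36 for the 17 genes and -0.67 for the 103 genes, against -0.06 over all 3136 (log2 scale). Library B was below both others for 10 of the 17 genes (58.8%, against 32.2%) and above both for 57 of the 103 (55.3%, against 36.3%). Its median difference from the mean of A and C was -0.227 for the 17 genes and 0.462 for the 103, against 0.021 over all 3136.

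Across these genes, which are not independent replicates, the difference of library A correlated with the mutant's stage difference at r = 0.309, and at r = 0.297 without HvMADS8. The same coefficient was -0.26 for library B and -0.073 for library C, and each of these differences is taken against the other libraries of the group. Set the other way round, the mutant libraries of W2.0 correlated with the stage difference of the wild type at -0.08, 0.078 and 0.012 for A, B and C. Mutant library C was above both other mutant libraries for 14 of the 27 genes that were at least 2-fold higher at W3.5 in the wild type (51.9%, against 40.2% of 3136). Its median difference for these was 0.446, against 0.092 over all 3136. For the 219 genes that were lower by this much, library C was below both others for 77 (35.2%, against 26%). It was above both for 97 (44.3%, against 40.2%), and its median difference was 0.076. HvMADS8 had a difference of 2.97 between library A and the mean of B and C, and 3 of the 3162 tested genes, itself included, had one at least as large. The part of this library in the W2.0 means of HvMADS1, HvMADS5, HvMADS34 and HvMADS7 was not tested, because their single libraries were not recovered.

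**Figure D4:**
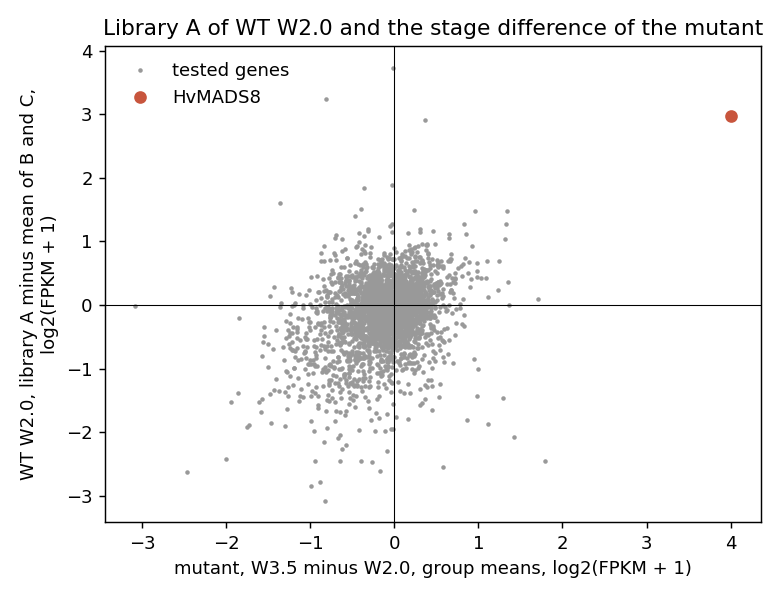
Difference between wild-type library A and the mean of wild-type libraries B and C at W2.0 (vertical axis) against the difference of the mutant's group means, W3.5 minus W2.0 (horizontal axis), both on log2(FPKM + 1), for the tested genes (grey) and HvMADS8 (red). HvMADS8 lies at 4.0 on the horizontal and 2.97 on the vertical axis, and over all points r is 0.309.

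The profiles of the 5 genes were compared pair by pair, with no clustering. Likeness was measured as the Euclidean distance between log2(FPKM + 1) values over the 4 group means, each profile centred on its own mean. HvMADS7 and HvMADS8 were each other's nearest gene among all 19367, at a distance of 0.137. In the 3 groups where both were above 0, HvMADS7 stood at 0.848 of HvMADS8 in the wild type at W2.0, 0.888 in the wild type at W3.5 and 0.854 in mutant spikes of W3.5, while in the mutant at W2.0 HvMADS7 was listed at 0 and HvMADS8 at 0.0292 FPKM.

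HvMADS1 and HvMADS5 lay 0.432 apart, with 4 genes nearer to HvMADS1 and 5 nearer to HvMADS5. HvMADS1 stood at 0.342 of HvMADS5 in the wild type and 0.356 in the mutant for W2.0, and at 0.51 and 0.527 for W3.5, so this ratio differed between stages more than between genotypes. The nearest gene to both was HORVU2Hr1G092290 on 2H, at 0.322 from HvMADS1 and 0.179 from HvMADS5, with means of 10.5 FPKM in the wild type and 2.57 FPKM in mutant spikes of W2.0 and of 20.2 and 17.1 FPKM at W3.5. The other members closest to HvMADS8 were HvMADS1 and HvMADS5, with 9 and 12 genes nearer.

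HvMADS34 was farther from each of the other 4 than these were from one another. Its distances were 1.76 to 3.38, and the largest among the other 4 was 1.66, between HvMADS5 and HvMADS8. Its nearest gene was HORVU1Hr1G088280 on 1H, at 0.107, with means of 13.8 and 13.3 FPKM in the wild type and mutant at W2.0 and of 12.8 and 21.3 FPKM at W3.5. These 2 neighbours have no name in the sources used here. The distances rest on 4 group means each and describe the profiles only.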

How the data were processed

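The authors deposited FPKM values as means of the 3 libraries of each group; no header names this unit, which was inferred from the numbers. FastQC, HISAT2 2.0.0 and HTSeq 0.11.2 are named in the submitters' processing notes, and libraries came from the TruSeq kit version 2, per the labels' protocols. Genome build and annotation are not stated there. Depths of the 12 libraries were derived from ratios of low values between columns and lay within 0.14 of whole numbers. Where both W2.0 means were under 10 FPKM, whole reads and a whole length of 150 to 4000 were searched over the columns under 10 FPKM, unless over 1500 lengths could fit by chance. Reads holding over 0.95 of the posterior probability (Dirichlet-multinomial prior) were accepted. Of 17360 such genes 13342 were searched and 12402 recovered. The recovery was tested on simulated data, also at the group means of HvMADS8 with libraries spread as widely as its own, where some accepted solutions were wrong, so its single-library values are inferred and not counted directly. Among the members HvMADS8 alone was recovered, at W2.0. At W2.0 HvMADS34 lay above 10 FPKM in both genotypes and HvMADS5 in the wild type only, so neither was searched. HvMADS7 exceeded the limit on chance lengths, and the best reads of HvMADS1 held 18.0%. Tests used limma 3.58.1 (R 4.3.3) with a mean-variance trend on log2(FPKM + 1) of the 6 libraries of W2.0, for 3162 genes that reached 1 FPKM in 3 or more of them, with Benjamini-Hochberg adjustment at 0.05. Recovery favours genes with a low column, so these are not a random draw of genes. The plan named a fit over all 4 groups, which no member could enter. The labels speak of biological replicates but not of separate sowings. Members and lists were chosen with earlier results of these data known. The text names all 5 members and, for each, the gene nearest in profile. Python 3.11.15, numpy 2.4.6 and numba 0.67.0 were used.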

Additional observations from a re-analysis of the deposited data

How the results depend on the processing

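No paired analysis was possible because the columns are group means and recovered libraries carry no replicate number. Pseudocounts of 0.1 and 5 FPKM, no filter, columns centred on their median and a 1.5-fold call were tried on the group means. The counts of members lower in the mutant, higher at W3.5 and higher in the interaction stayed within 1.5 times of those reported, with 1 exception. With a pseudocount of 5 the interaction was past 2-fold for 1 member in place of 4, and for 1.22% of all genes in place of 2.97%. With the pseudocount of 5, HvMADS1 also dropped under 2-fold at W2.0 (-0.77) and between the WT stages (0.92). At 1.5-fold, HvMADS34 (0.77) counts as higher in the mutant at W3.5. It also counts as higher between the mutant stages (0.68) and in the interaction (0.70). All 5 members then pass in these comparisons, against 2.61% and 6.4% of all genes. HvMADS5 (0.72) then counts as higher between the WT stages, where 4 members pass, against 6.18% of all genes. In limma at W2.0 54 of 3162 genes were called, against 21 of 12402 with no filter. Of the same 3162 genes, 32 were called with limma-voom and 12 to 42 when 1 library was left out, the lowest without WT library C. In the main fit 295 genes had an unadjusted limma p under 0.05. HvMADS8 was lower in the mutant and not called under all 12 alternatives of that fit, with limma adjusted p of 0.0706 to 0.706. Its recovered reads were the same under equal weights on the dispersions (99.5% of the posterior), without the largest dispersion (99.8%) and with lengths to 8000 (95.4%); these alternatives, median centring of the libraries and a stricter acceptance of 0.99 were chosen after seeing the data. Group means carry no replicate check, and genes above 10 FPKM had no recovered libraries.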
